A study of Mus musculus with 6 samples.

Results

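The histone genes of the replication-dependent type were followed in mouse bone marrow cells 72 hours after retroviral transduction with MN1, a transcriptional coregulator linked to myeloid leukaemia, or with the empty vector. Members were all genes with a single annotated symbol beginning with H1f, H2ac, H2bc, H3c or H4c and a number, the current names of the former Hist1h to Hist4h genes. The rule found 30 of the 19938 single-named genes on the array: 8 of linker histone H1, 4 of H2A, 9 of H2B, 3 of H3 and 6 of H4. The rule reads symbols alone, and each member had 1 probe set. A further 36 histone genes are named only on probe sets that carry several names, because their coding sequences are nearly identical, and 26 such probe sets are described as a group. Of the 30 members, 27 also carry an older Hist name. The other members, H1f7, H1f8 and H1f10, are linker histone genes without one, and H1f10 encodes a linker histone made outside S phase as well. The symbol rule takes them in, though they are not replication-dependent histone genes in the strict sense. H1f6, H2ac1 and H2bc1, the former Hist1h1t, Hist1h2aa and Hist1h2ba, are known as testis histone genes.

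The MN1 group held 3 arrays of reporter-positive cells transduced with MN1 in an MSCV vector with an IRES-linked reporter. The control group held 3 arrays of reporter-positive cells transduced with the empty vector, MSCV-IRES-GFP. All cells in both groups had therefore been transduced and sorted, and the labels name the reporter GFP where the series description has YFP. The sources used here do not give the mouse strain or age, whether animals were pooled, or the species of the MN1 cDNA. The series description speaks of 3 separate experiments, but no label ties a replicate number to one of them, so the p-values measure only the spread between these arrays.

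Replication-dependent histone genes supply the core histones H2A, H2B, H3 and H4 and the linker histone H1 that package newly made DNA. Their mRNAs accumulate in S phase, end in a stem-loop instead of a poly(A) tail and are degraded when DNA synthesis stops. In marrow their level is often used as a readout of replicating cells, and in sorted bulk cells fewer replicating cells and less histone mRNA per cell cannot be told apart. Some of these genes also give polyadenylated mRNA in cells that have left the cycle.

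Upstream sequence was read to see what the members share besides their names. RefSeq promoter windows (build GRCm38.p6) were found for 26 of the 30 members, 21 on chromosome 13, where the large histone cluster lies, and 2 on chromosome 3. Within the 250 bases before the start site, on both strands, 4 motifs were searched. They were the octamer ATTTGCAT of H2B promoters, the H1 box, spelled AAACACA, the TATA box in the form TATAAA, and finally the CCAAT box. None of these strings contains another. The octamer stood in 5 of 7 H2B windows and 3 of 4 H2A windows, in 0 of 8 H1, 0 of 2 H3 and 0 of 5 H4 windows, and in 1.6% of all 32851 windows. CCAAT stood in 20 of 26 member windows and in 33.8% of all windows, and TATAAA in 14 of 26 and in 12.4%. The H1 box stood in 4 of 8 H1 windows, in 8 of 26 member windows and in 6.25% of all windows. No motif stood in all 26 member windows, and those of H1f7, H1f10, H3c15 and H4c8 held none of the 4. The windows of H2ac8 and H2bc8 overlap, as do those of H2ac1 and H2bc1, and all of these hold an octamer. A match in a shared stretch is counted for both genes, so the H2A and H2B counts are not independent. A match is a description of the letters, not of a bound site. The windows below belong to the member with the largest difference in the H1, H2A, H2B and H4 families, read 5′ to 3′ on the strand of the gene, with motif matches in capitals.
H1f5 promoter, chr13:21780626-21780875, minus strand: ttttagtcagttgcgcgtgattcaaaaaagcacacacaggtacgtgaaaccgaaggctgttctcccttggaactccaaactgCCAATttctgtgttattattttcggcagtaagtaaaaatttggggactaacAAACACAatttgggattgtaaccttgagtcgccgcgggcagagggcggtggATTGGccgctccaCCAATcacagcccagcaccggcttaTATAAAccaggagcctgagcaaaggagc
H2ac4 promoter, chr13:23750838-23751087, plus strand: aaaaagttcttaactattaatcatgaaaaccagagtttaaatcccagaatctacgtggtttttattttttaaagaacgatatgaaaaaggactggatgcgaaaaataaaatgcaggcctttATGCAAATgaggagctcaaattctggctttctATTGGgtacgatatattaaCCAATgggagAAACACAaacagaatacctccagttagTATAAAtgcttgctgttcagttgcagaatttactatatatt
H2bc14 promoter, chr13:21721794-21722043, plus strand: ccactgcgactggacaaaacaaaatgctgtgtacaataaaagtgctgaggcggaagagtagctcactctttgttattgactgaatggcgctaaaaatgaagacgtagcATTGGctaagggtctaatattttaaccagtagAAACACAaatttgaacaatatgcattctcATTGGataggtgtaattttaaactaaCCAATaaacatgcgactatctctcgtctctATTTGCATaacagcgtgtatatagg
H4c6 promoter, chr13:23551669-23551918, minus strand: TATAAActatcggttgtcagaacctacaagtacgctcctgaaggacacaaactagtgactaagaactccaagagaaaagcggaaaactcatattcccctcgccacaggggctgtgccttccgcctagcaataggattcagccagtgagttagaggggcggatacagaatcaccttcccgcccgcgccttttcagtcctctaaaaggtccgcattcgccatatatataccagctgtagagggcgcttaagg
The H1f5 window holds the H1 box, 3 CCAAT matches and a TATAAA ending 23 bases before the start. The H2bc14 window holds the octamer at 25 to 18 bases before the start. In the H2ac4 window the octamer is on the other strand, at 129 to 122 bases before the start. H4c6 has a TATAAA at the far end of its window only.

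On average 27 of the 30 histone genes were lower with MN1 and 3 were higher, with a median log2 difference of -0.31. Over all genes 56.7% were lower, and the median was -0.03. By more than 0.5 on the log2 scale, 11 histone genes were lower, against 1.77% of all genes. No member passed limma's test after Benjamini-Hochberg adjustment over all genes at 0.05 (0 of 30, smallest adjusted p 0.584), and neither did any other gene (percent called 0). At an unadjusted p under 0.05, 4 members were lower and 0 higher, where 4.23% of all genes were lower and 4.17% higher. That count was 0 when MN1 replicate 1 or empty vector replicate 2 was left out, 1 when MN1 replicate 3 or empty vector replicate 1 was, 8 when empty vector replicate 3 was and 17 when MN1 replicate 2 was. The groups did not overlap for 4 members, all with MN1 below, which is 13.3% of them, against 10.3% of all genes for MN1 below and 5.71% for MN1 above. That share is near the background. Without MN1 replicate 1, 4 members were lower by more than 0.5, against 1.67% of all genes, and with any other array left out 11 to 14 were.

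**Figure D1:**
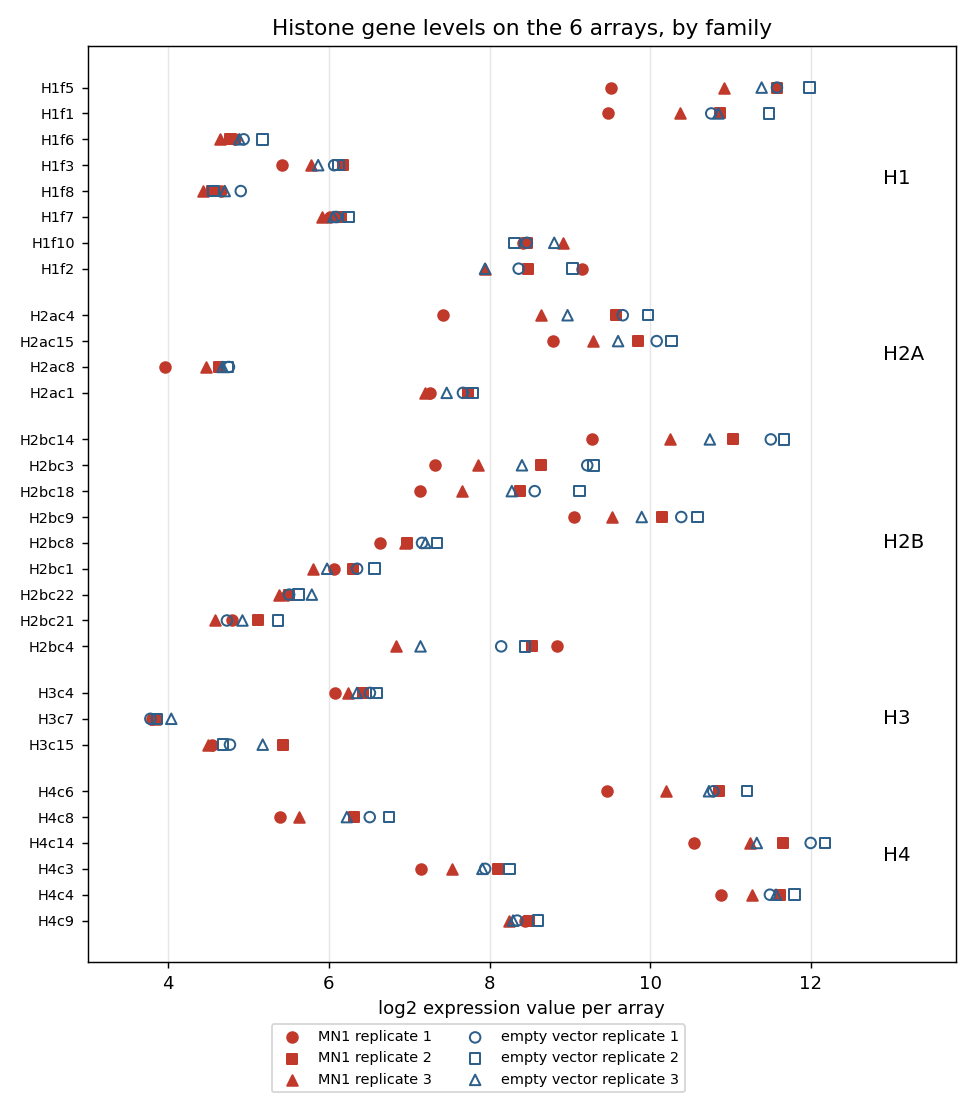
Log2 expression value (x axis) of each of the 30 histone genes (rows, grouped by family) on the 3 MN1 arrays (filled red) and 3 empty vector arrays (open blue). MN1 replicate 1 lies lowest for 17 genes and empty vector replicate 2 highest for 21, while MN1 replicate 2 lies mostly among the empty vector arrays.

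The largest differences of single members were those of the H2B genes H2bc14 and H2bc3. H2bc14, the former Hist1h2bm, measured 9.28, 11.04 and 10.24 on MN1 replicates 1 to 3 and 11.50, 11.67 and 10.74 on the empty vector replicates. MN1 replicate 2 lay above empty vector replicate 3, so the groups overlapped. The log2 difference was -1.12 ± 0.47 (SE; adjusted p 0.584, limma). H2bc3 measured 7.32, 8.63 and 7.85 with MN1 and 9.22, 9.29 and 8.40 with the empty vector, a difference of -1.04 ± 0.38. H2bc18, from the chromosome 3 cluster, measured 7.14, 8.38 and 7.66 against 8.56, 9.12 and 8.28, a difference of -0.93 ± 0.35. H2bc9 measured 9.06, 10.14 and 9.53 against 10.39, 10.59 and 9.89, a difference of -0.71 ± 0.31. In each of these 4 genes MN1 replicates 1 and 3 lay below every empty vector array and MN1 replicate 2 lay inside the empty vector range. Of the 9 H2B genes, 8 were lower, with a median of -0.38, or -0.27 without MN1 replicate 1. The family medians of H2A and H4 were larger, at -0.52 and -0.56.

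H2A gave a like picture from fewer genes, all 4 of them lower with a median of -0.52, or -0.29 without MN1 replicate 1. H2ac4 measured 7.42, 9.57 and 8.63 with MN1 and 9.66, 9.97 and 8.97 with the empty vector, which gives a log2 difference of -0.99 ± 0.55 (SE). MN1 replicate 1 lay far below every other array. H2ac15 measured 8.79, 9.85 and 9.28 against 10.08, 10.26 and 9.60, a difference of -0.67 ± 0.30. H2ac8 was the one named H2A gene with separate groups, at 3.97, 4.63 and 4.47 against 4.76, 4.74 and 4.68, but it is dim, at the 18.9th percentile of all genes by mean level. Its difference was -0.37 ± 0.18.

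H2A and H2B genes often stand head to head and share the stretch between them. H2ac8 and H2bc8 are such a pair, with promoter windows that overlap. Their differences were -0.37 ± 0.18 and -0.38 ± 0.13 (SE), or -0.17 and -0.27 without MN1 replicate 1. The testis pair H2ac1 and H2bc1, whose windows overlap by 220 bases, differed by -0.25 ± 0.17 and -0.24 ± 0.19. Whether the genes of a pair vary together was not tested. H2bc8, H2ac1 and H2bc1 were named for their place in a pair after their values were seen.

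Among linker histone genes, the S phase subtypes H1f5 and H1f1 were bright and lower with MN1. H1f5, the former Hist1h1b, measured 9.52, 11.58 and 10.92 with MN1 and 11.58, 11.98 and 11.39 with the empty vector, which gives a log2 difference of -0.98 ± 0.51 (SE). H1f1 measured 9.47, 10.87 and 10.37 against 10.76, 11.48 and 10.85, a difference of -0.79 ± 0.38. In both, MN1 replicate 1 was more than 1 log2 unit below the mean of the other MN1 arrays, by -1.74 for H1f5 and by -1.15 for H1f1. The testis gene H1f6 measured 4.83, 4.77 and 4.64 against 4.94, 5.18 and 4.89, with groups that did not overlap and a difference of -0.25 ± 0.12. The H1 family as a whole, with H1f7, H1f8 and H1f10 included, had 6 of 8 genes lower and a median of -0.20.

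H4 genes were all lower on average (6 of 6, median -0.56, or -0.30 without MN1 replicate 1). H4c6 measured 9.46, 10.86 and 10.20 with MN1 and 10.79, 11.20 and 10.73 with the empty vector, which gives a log2 difference of -0.73 ± 0.35 (SE). H4c8 measured 5.39, 6.31 and 5.63 against 6.51, 6.75 and 6.22, a difference of -0.71 ± 0.26. H4c14, the former Hist2h4 and the brightest member, measured 10.55, 11.65 and 11.25 against 12.00, 12.17 and 11.33, a difference of -0.68 ± 0.33. In all 3 genes MN1 replicate 2 again lay inside the empty vector range. H4c4 measured 10.88, 11.61 and 11.27 against 11.49, 11.80 and 11.57, a difference of -0.36 ± 0.20.

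The 3 single-named H3 genes had a median log2 difference of -0.07, and H3c7 and H3c15 lay in the lowest 40% of genes by mean level. With 1 array left out that median ran from -0.33 without MN1 replicate 2 to 0.0072 without empty vector replicate 3, with -0.12 and -0.15 when empty vector replicates 1 and 2 were left out. H3c4 measured 6.07, 6.42 and 6.24 with MN1 and 6.51, 6.59 and 6.35 with the empty vector, which gives a log2 difference of -0.24 ± 0.13 (SE). H3c7 stayed between 3.78 and 4.04 on every array, with a difference of -0.07 ± 0.10. H3c15 measured 4.54, 5.44 and 4.50 against 4.77, 4.68 and 5.18, a difference of -0.05 ± 0.28. The other H3 genes are read by the probe sets with several names.

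The 26 shared probe sets had mean levels from 6.71 to 13.07, and all 26 were lower with MN1, by -0.33 to -0.77 on the log2 scale. They are not independent, since probe sets of a family read nearly the same mRNAs. A pair of H2B probe sets had identical values on every array, as did a pair of H4 probe sets. The counts and medians therefore repeat some measurements. The 10 H3 probe sets had medians of 12.30, 13.36 and 12.89 on the MN1 arrays and 13.34, 13.30 and 13.04 on the empty vector arrays, with a median difference of -0.38. The 7 H2B probe sets had medians of 11.23, 12.63 and 11.94 against 12.78, 12.94 and 12.33, with a median difference of -0.73. The median difference was -0.35 over 6 H4 probe sets and -0.49 over 2 with mostly H2A names. A probe set with names of different families differed by -0.43. Over all 26 shared probe sets the median difference was -0.39. It was -0.18 without MN1 replicate 1 and -0.64 without MN1 replicate 2, and all 26 stayed lower whichever array was left out. In all 26 the groups overlapped and MN1 replicate 1 was the lowest array.

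**Figure D2:**
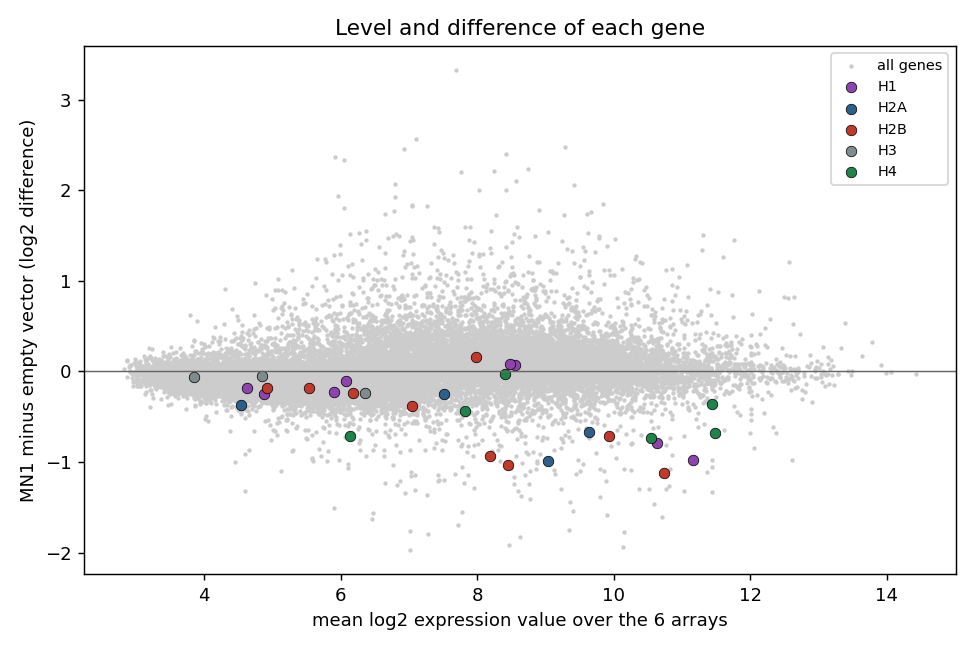
Mean log2 expression value over the 6 arrays (x axis) against the log2 difference, MN1 minus empty vector (y axis), for all 19938 genes (grey) and the 30 histone genes (coloured by family). H2bc14 lies lowest of the histone genes at -1.12, and H1f2, H1f10, H2bc4 and H4c9 lie between -0.02 and 0.16.

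The differences were smaller among dim members. The 7 members in the lowest 40% of genes by mean level were all lower, with a median log2 difference of -0.18, and the other 23 had a median of -0.44 with 20 lower. RMA is known to compress differences between dim values. Whether that played a part here was not tested.

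The means of 4 other histone genes lay near those of the empty vector or above them. They were picked out after their values were seen. H1f2, the former Hist1h1c and a linker histone gene also transcribed in cells that no longer divide, measured 9.15, 8.48 and 7.94 with MN1 and 8.36, 9.03 and 7.94 with the empty vector, which gives a log2 difference of 0.08 ± 0.38 (SE). H2bc4, the former Hist1h2bc, measured 8.84, 8.53 and 6.83 against 8.14, 8.44 and 7.14, a difference of 0.16 ± 0.59. For both, MN1 replicate 1 was the highest of the 6 arrays, although it was the lowest for 17 other members. H1f10 differed by 0.07 ± 0.19, and H4c9 by -0.02 ± 0.13. The direction of these 4 genes was not stable: quantile normalization gave -0.0090 for H1f2 and -0.017 for H1f10, median-centring gave 0.0087 for H4c9, and without MN1 replicate 1 H1f2 differed by -0.23 and H2bc4 by -0.23.

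The histone values varied strongly between arrays of the same group. Relative to each gene's empty vector mean, the median histone gene lay at -0.60, -0.06 and -0.47 (log2) on MN1 replicates 1 to 3 and at -0.05, 0.24 and -0.16 on the empty vector replicates. MN1 replicate 3 lay below all 3 empty vector arrays for 28 of the 30 members, where 34% of all genes did so, and MN1 replicate 1 for 22 of 30, where 37.8% of all genes did. The counts take any margin, however small: H1f2 measured 7.943 on MN1 replicate 3 and 7.944 on empty vector replicate 3. MN1 replicate 2 did so for 5 of 30, against 24.2% of all genes. The low histone values were thus found on 2 of the 3 MN1 arrays. Without MN1 replicate 1, 28 of 30 members were still lower on average, at a median of -0.23, and 54.1% of all genes were lower. By gene, H2bc14 then differed by -0.67, H2bc3 by -0.73, H1f5 by -0.40 and H4c6 by -0.38.

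**Figure D3:**
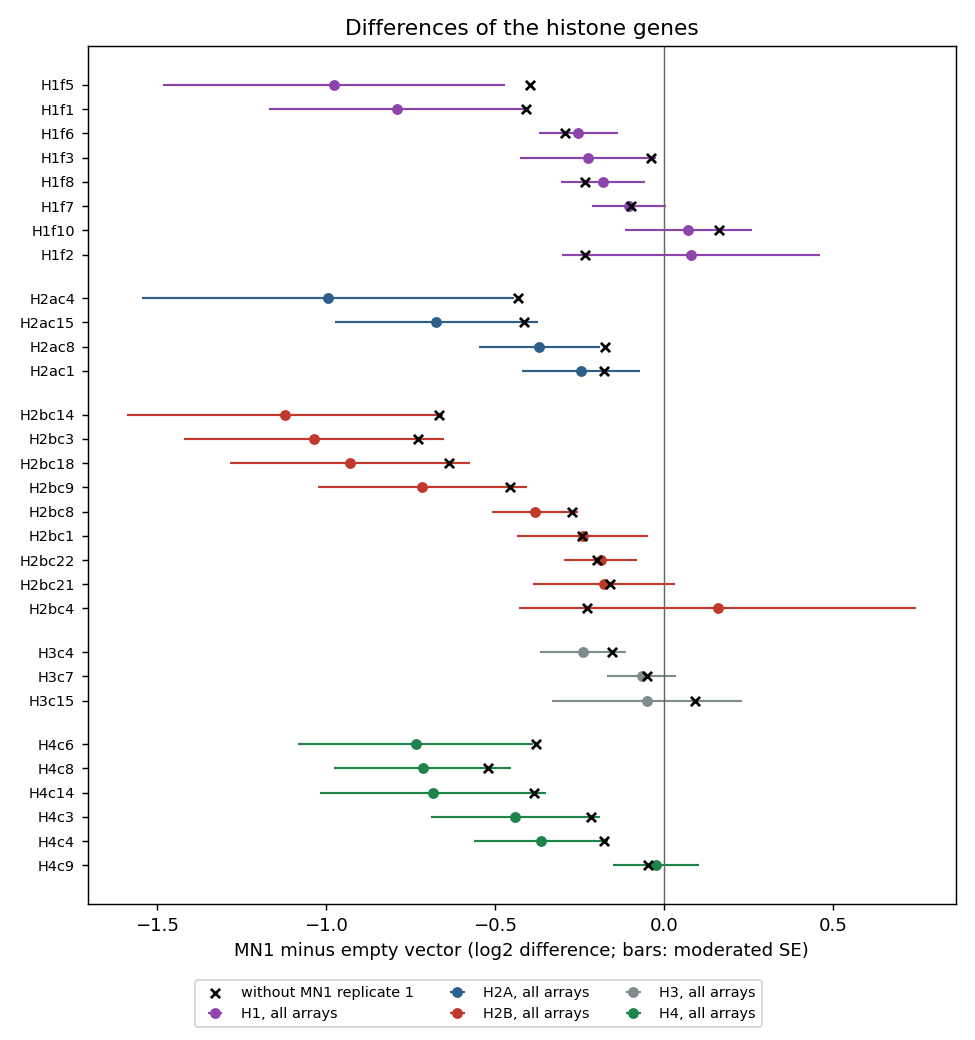
Log2 difference, MN1 minus empty vector (x axis), of each histone gene with its moderated SE (dots and bars, coloured by family) and the same difference without MN1 replicate 1 (crosses). The largest differences shrink toward 0 without that array, from -0.98 to -0.40 for H1f5, and H1f2, H2bc4 and H3c15 change sign.

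S phase genes gave a partly different array pattern. Of 47 measured genes of DNA replication, the mean was lower for 43 and higher for 4, and the median log2 difference was -0.26. MN1 replicate 1 was the lowest of the 6 arrays for 46 of the 47, where it was the lowest for 25.2% of all genes. On the per-array scale used above, the S phase genes lay at -0.91, 0.07 and 0.00 on the MN1 replicates and at -0.11, 0.12 and -0.02 on the empty vector replicates. On MN1 replicate 3, 7 of 47 S phase genes lay below all empty vector arrays, beside 28 of 30 histone genes. Without MN1 replicate 1 the S phase genes had a median of 0.04 with 19 of 47 lower, beside the histone median of -0.23 with 28 of 30 lower. Without MN1 replicate 2 the S phase median was -0.43. Whether the 2 lists differ was not tested. Rrm2, a subunit of ribonucleotide reductase, measured 8.05, 9.31 and 9.65 with MN1 and 9.35, 9.85 and 9.79 with the empty vector, a difference of -0.66 ± 0.41 (SE). The chromatin factor gene Uhrf1 differed by -0.65 ± 0.45, Gins1, of the replicative helicase, by -0.56 ± 0.40 and the flap endonuclease gene Fen1 by -0.50 ± 0.25.

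**Figure D4:**
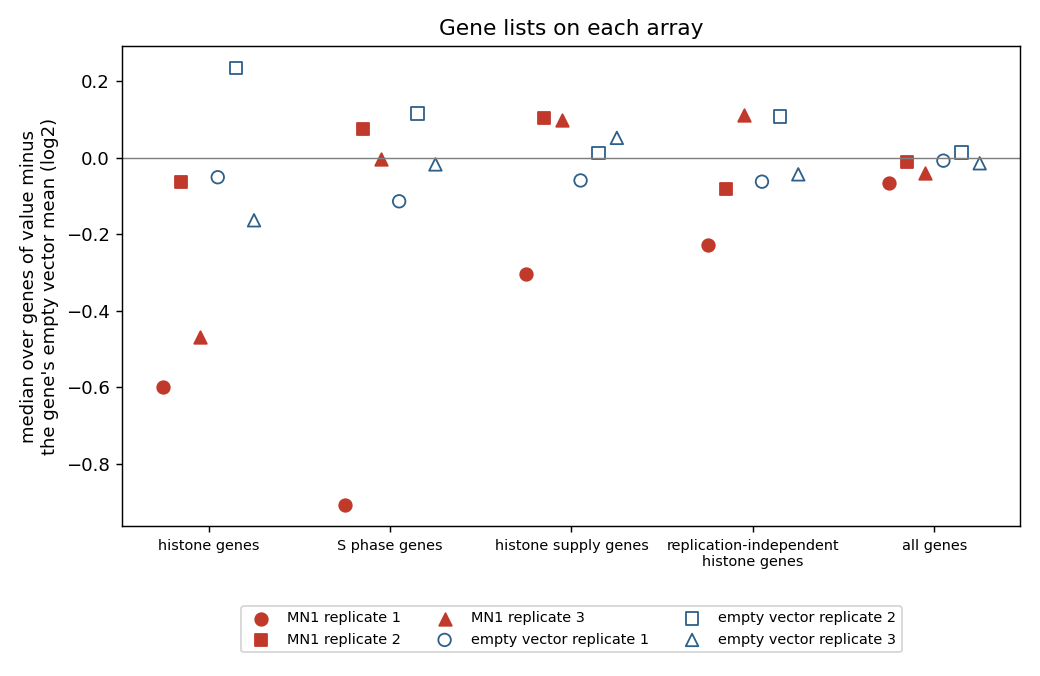
For each gene list (x axis), the median over its genes of the log2 value minus the gene's empty vector mean (y axis), on the 3 MN1 arrays (filled red) and 3 empty vector arrays (open blue). MN1 replicate 1 is low for both histone and S phase genes, at -0.60 and -0.91, and MN1 replicate 3 is low for the histone genes at -0.47 but at 0.00 for the S phase genes.

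The genes that make and handle histone mRNA and protein lay near the background. Their means were lower for 28 and higher for 23 of 51, and the median log2 difference was -0.03 against -0.03 over all genes. It was 0.06 without MN1 replicate 1 and -0.12 without MN1 replicate 2, -0.02 without empty vector replicate 1 and 0.0021 without empty vector replicate 2. Without MN1 replicate 1, 12 of the 51 were lower, against 54.1% of all genes. None passed adjustment over all genes. Among 8 genes of histone transcription, 4 were lower, or 3 without MN1 replicate 1. Npat, the coactivator of histone genes that cyclin E and Cdk2 switch on, was higher on every MN1 array, at 7.81, 7.82 and 8.06 against 7.65, 7.48 and 7.77, a difference of 0.26 ± 0.13 (SE). The cyclin E genes Ccne1 and Ccne2 differed by -0.48 ± 0.27 and -0.41 ± 0.35, with overlapping groups, and E2f1 by -0.19 ± 0.17.

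Of 15 genes of histone mRNA 3′ end formation, 11 were lower, with a median log2 difference of -0.08. This direction rested on MN1 replicate 1, the lowest array for 11 of the 15. Without it 3 of 15 were lower, with a median of 0.02. Slbp, which encodes the protein that binds the histone mRNA stem-loop, was lowest on MN1 replicate 1, measured 9.34 and 9.46 on the other MN1 arrays and 9.19, 9.52 and 9.80 with the empty vector, a difference of -0.24 ± 0.19 (SE). Snrpg, a core small nuclear ribonucleoprotein gene, had separate groups, at 9.25, 9.79 and 9.57 against 9.90, 9.98 and 9.81, with a difference of -0.36 ± 0.15. Srrt differed by -0.24 ± 0.21 and Cpsf2 by 0.18 ± 0.13.

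The largest difference on the supply side was in decay. Tut4, also called Zcchc11, a terminal uridylyltransferase that marks RNAs for degradation, measured 8.95, 8.69 and 9.56 with MN1 and 7.82, 7.57 and 8.56 with the empty vector. Every MN1 array lay above every empty vector array, and the log2 difference was 1.08 ± 0.32 (SE; adjusted p 0.584, limma). The exonuclease gene Xrn1 was also higher with separate groups, by 0.25 ± 0.11. Eri1, the exonuclease that trims histone mRNA ends, differed by -0.20 ± 0.19 and Tut7 by 0.12 ± 0.17. Of the 8 decay genes 3 were lower and 5 higher.

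Histone chaperone genes were split evenly with all arrays, 10 lower and 10 higher of 20. That split rested on MN1 replicate 1: without it 3 of 20 were lower, with a median log2 difference of 0.14. Asf1b, the H3-H4 chaperone of dividing cells, differed by -0.57 ± 0.38 (SE), its paralog Asf1a by 0.30 ± 0.24, the chromatin assembly factor gene Chaf1a by -0.39 ± 0.26 and Tonsl by -0.31 ± 0.25. Asf1b was at 8.58 on MN1 replicate 1 and between 9.74 and 10.30 on the other arrays. Histone genes expressed outside S phase had 5 of 9 lower, with a median of -0.10 (-0.06 without MN1 replicate 2, -0.05 without empty vector replicate 3), and 1 of these 9, H1f10, is also among the 30. H2ax, whose product marks DNA breaks and whose gene also yields a stem-loop mRNA, differed by -0.45 ± 0.16, at 10.12, 10.46 and 10.06 against 10.76, 10.78 and 10.43. Cenpa, the centromeric H3 gene, differed by -0.28 ± 0.18, H2az2 by -0.20 ± 0.25 and the single-named H3f3a probe set, at a level near 4.6, by -0.15 ± 0.10.

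The transduced gene gave a limited check of the labels. Mn1 measured 6.47, 6.62 and 6.08 with MN1 and 5.34, 5.41 and 4.80 with the empty vector, so the groups were separate (adjusted p 0.584, limma). Its probe set was dim, at the 39.5th percentile of all genes by mean level. Since the species of the MN1 cDNA is not given, how well this probe set reads the transduced mRNA is unknown. The 8 haematopoietic markers fixed for the tissue, among them Ptprc, Spi1 and Kit, had mean levels of 10.56 to 11.73, and none was dim. Marker genes of several cell types differed between the arrays. Of 14 granulocyte markers 13 were lower with MN1 (median log2 difference -1.31), with mean levels of 8.82 to 9.72 on the MN1 arrays and 8.42 to 11.82 on the empty vector arrays. All 10 macrophage markers were higher (median 1.33), at 10.49 to 11.48 against 9.02 to 10.09, as were all 7 megakaryocyte markers (median 0.97), at 9.33 to 11.25 against 8.44 to 9.85. Of 7 erythroid markers 6 were lower (median -0.59), at 6.39 to 7.01 against 7.20 to 7.49. Of 9 B cell markers 6 were higher (median 0.45), at 6.17 to 7.32 against 6.02 to 7.31. Of 7 T cell markers 6 were lower (median -0.43), at 5.60 to 5.92 against 6.09 to 6.42, and of 7 stromal markers 6 were lower (median -0.25), at 6.45 to 6.60 against 6.63 to 6.82. These medians also moved with single arrays. Without MN1 replicate 1 they were -0.80 for granulocyte, 0.85 for macrophage, 0.55 for megakaryocyte, 0.20 for B cell and -0.12 for stromal markers. Without empty vector replicate 2 they were -0.52 for granulocyte, 0.75 for macrophage, 0.61 for megakaryocyte and 0.04 for B cell markers. Without empty vector replicate 3 the granulocyte median was -2.54 and the T cell median -0.27, without MN1 replicate 3 the megakaryocyte median was 1.52, and the B cell median reached 0.87 without MN1 replicate 2. The B cell median was 0.15 without MN1 replicate 3 and 0.16 without empty vector replicate 1. No array value is a true 0, and 2 erythroid, 3 B cell, 4 T cell and 2 stromal markers lay in the lowest 40% of genes. The part of these cell types in the histone values was not tested.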

How the data were processed

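RNA from sorted cells (200 ng, per the labels' protocols) was labelled by a whole-transcript method and hybridised to one-colour Affymetrix arrays. The authors deposited log2 expression values per probe set, by RMA according to the submitters' processing notes. The sources used here do not give its software, its version or which arrays were normalized together. The log2 scale follows from the range, 2.29 to 14.80. All 6 value columns were used and 0 left out. Of 35557 probe sets, 21789 carry 1 gene symbol in the annotation of 2016, 1621 several and 12147 none. A gene's probe set with the highest mean was kept, giving 19938 genes. The annotation uses current histone symbols, so families were read from those; H2aw, H2bu2 and H4f16, formerly Hist genes, fall outside the rule.

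The comparison of MN1 (3 arrays) with empty vector (3 arrays) used limma 3.58.1 (R 4.3.3; lmFit, eBayes, two-sided, Benjamini-Hochberg over all genes, threshold 0.05), with no block. Same-numbered arrays were checked for shared deviations from their group means (r = 0.13, 0.07 and 0.32 over genes, which are not independent replicates) and were not treated as pairs. Alternatives were a replicate block, median-centring, quantile normalization, leaving out the dimmest 40% of probe sets, averaging a gene's probe sets, an intensity trend with a robust prior and each array left out. Members and lists were chosen with earlier results of these data known. Values are given per array for the 3 members with the largest difference and the 2 brightest in each family, and up to 4 genes of each other list, with Mn1, Npat and Slbp. Of the other lists, 15 entries were not measured under a single name. With 3 arrays a group, precision is low.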

Additional observations from a re-analysis of the deposited data

How the results depend on the processing

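The number of histone genes called was 0 under every alternative run, as was the number of all genes called; the smallest adjusted p over all genes lay between 0.0989 and 0.935 (limma), and at an unadjusted p under 0.05 the number of genes ran from 906 without empty vector replicate 2 to 1980 with the replicate block. The replicate block, with numbers that are not shown to pair arrays, left the histone median at -0.31 and gave 11 members at an unadjusted p under 0.05, against 4 without it. The histone median was -0.28 after median-centring, -0.33 after quantile normalization, -0.41 without the dimmest 40% of probe sets (24 members left), -0.37 over the 27 members with an older Hist name (chosen after seeing the data), and from -0.43 to -0.23 with 1 array left out. Median-centring moved the median of all genes from -0.03 to 0.00; 26 histone genes were then lower, and 29 after quantile normalization.

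Differences that changed sign were those of H1f2, H1f10, H2bc4, H2bc21, H3c7, H3c15 and H4c9. H4c9 differed by 0.0087 after median-centring, and H1f10 and H1f2 by -0.017 and -0.0090 after quantile normalization. With 1 array left out in turn, H1f2 ran from -0.23 to 0.37, H1f10 from -0.086 to 0.21, H2bc4 from -0.23 to 0.77, H2bc21 from -0.32 to 0.0024, H3c7 from -0.12 to 0.0072, H3c15 from -0.36 to 0.11 and H4c9 from -0.084 to 0.072. All other members kept their direction under every alternative that measured them. The cause was not tested. The number of arrays, and weak signal over background for the 7 dim members, limit these values.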
